A study of Rattus norvegicus with 8 samples.

Results

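The STAT family of transcription factors (signal transducers and activators of transcription) was examined in rat sciatic nerve tissue. Its members were chosen by gene symbol, as the 6 genes Stat2, Stat3, Stat4, Stat5a, Stat5b and Stat6 of 32545 genes with a row of values, and all 6 were among the 16478 genes with enough counts to be tested. No cut on a measured value entered this choice, but the family was proposed with its counts in these libraries known. The adjusted p-values of its members therefore describe these 8 libraries and are no independent evidence for the family.

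All animals were female outbred Sprague Dawley rats (Envigo) of 3 to 6 months. In the PEG group (n = 3) a segment of the sciatic nerve was replaced by a peripheral nerve allograft (PNA) that was joined by the PEG-fusion protocol, in which polyethylene glycol (PEG) seals the cut axons together after sutures are placed. In the negative controls (NC, n = 3) the PNA was sutured and washed in the same solutions, without PEG. Both kinds of PNA came from donors without tissue matching, were placed without immune suppression and were excised at 14 days post-operatively (PO), and the unoperated nerves (Unop, n = 2) carried no graft. Each library was made from the minced tissue of 1 nerve sample, which mixes Schwann cells, fibroblasts, vessels and infiltrating immune cells, so that a change in the number of cells and a change of RNA per cell cannot be told apart.

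A cytokine that binds its receptor on the cell surface activates Janus kinases attached to the receptor, which phosphorylate a STAT protein. The phosphorylated STAT pairs with another, enters the nucleus and binds DNA, and among the genes that it turns on are the SOCS and CISH inhibitors that close the pathway again. STAT2 acts with IRF9 in the answer to type I interferon. STAT4 carries the IL-12 signal in T cells and natural killer (NK) cells, STAT3 the signals of the IL-6 and IL-10 groups, STAT5A and STAT5B those of IL-2, growth hormone and prolactin, and STAT6 those of IL-4 and IL-13. In injured nerve, the IL-6 group member CNTF, which Schwann cells store, and LIF act on neurons and glia through STAT3. RNA levels do not show how much of a STAT protein is phosphorylated.

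Values are normalized counts, that is, read counts divided by a size factor of the library, and 32472925 to 39959620 reads per library lay on genes. Differences are on the scale of log2(normalized count + 1) with their standard errors (SE), from limma fitted to all 8 libraries, with n = 3 for PEG, n = 3 for NC and n = 2 for Unop. A gene was called where its p-value, adjusted over the 16478 tested genes, was under 0.05, and a called gene with a log2 difference over 1 in size is termed a DEG. Schwann cell markers, the defining markers of nerve tissue, summed to 66935 to 72417 in PEG, 23500 to 69497 in NC and 2038597 to 2421592 in Unop libraries. All 7 T cell markers were called lower in PEG than in NC PNAs, where 13.9% of all tested genes were. Their summed level was 1141 to 3510 in PEG, 16164 to 32208 in NC and 170.1 to 319.8 in Unop libraries. All 4 NK cell markers fell too, with sums of 728 to 1755 in PEG, 7497 to 10422 in NC and 120.1 to 134.2 in Unop libraries. Of 6 macrophage markers 4 fell (2 without PEG 2, without NC 1 and NC 3, or without PEG 2 and NC 1), and the 6 summed to 51888 to 56179 in PEG, 63887 to 77039.5 in NC and 8823 to 12397 in Unop libraries. The macrophage marker Cd68 went the other way, with 21610 to 23933 reads in PEG and 15734 to 17632 in NC libraries. Its log2 difference of 0.36 was not called. The 3 skeletal muscle fibre markers measured summed to 345240 in NC 1, 6320 in NC 2 and 127767 in NC 3, against 1984 to 10381 in PEG libraries. No marker of these lists was at 0 in any library.

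In PEG against NC PNAs, 5 of the 6 STAT genes were called lower and none higher, where 13.9% of all tested genes were called lower and 15.0% higher. All 6 genes were lower in every PEG library than in every NC library, a separation that 23.3% of tested genes showed. The median log2 difference of the 6 genes was -0.84, against 0.0017 over all tested genes. Stat4 and Stat2 were DEGs, 2 of 6 genes, where 7.14% of tested genes were DEGs with lower counts. Against Unop nerves, Stat2 and Stat3 were called higher in PEG PNAs and none was called lower, where 29.1% and 28.6% of tested genes were called. All 6 genes were called higher in NC PNAs than in Unop nerves, where 32.2% of tested genes were called higher and 32.3% lower. Of these, Stat2, Stat3 and Stat4 were DEGs, 3 of 6, where 19.6% of tested genes were DEGs with higher counts. The 3 comparisons share their libraries and are not independent of each other.

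**Figure D1:**
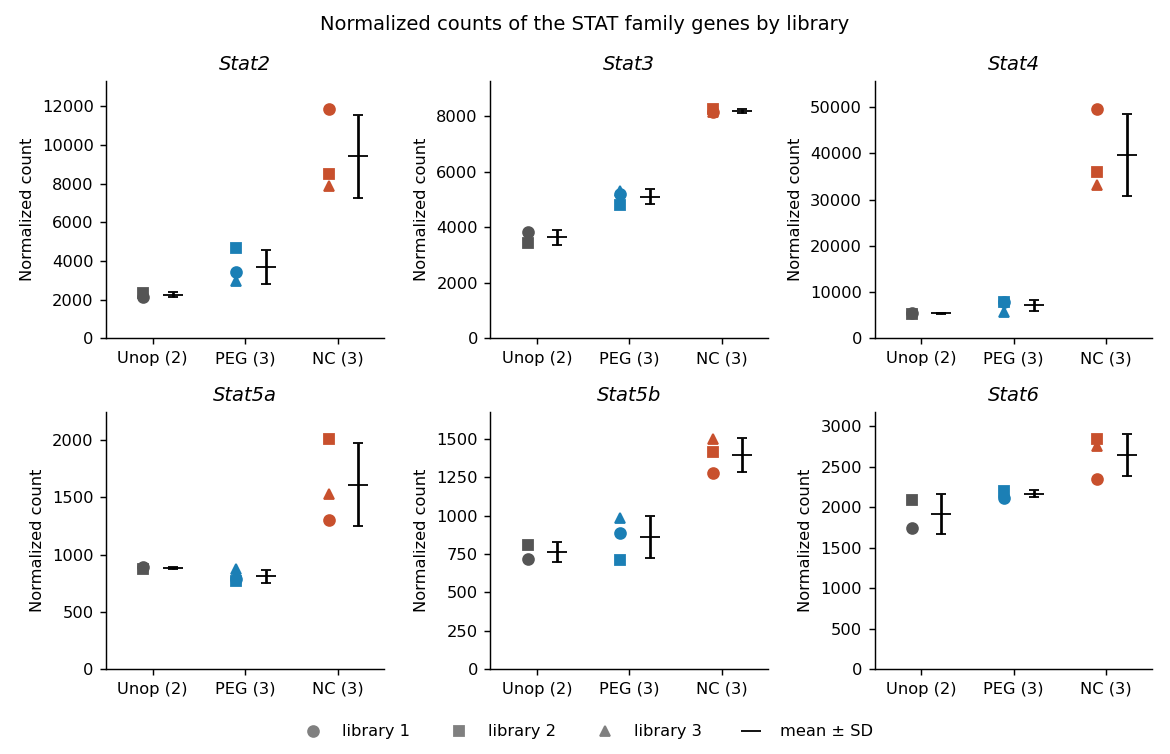
Normalized counts of the 6 STAT genes in each library, on axes that start at 0. Colours mark the Unop, PEG and NC groups, symbols mark the library number, and bars give the mean ± SD. In every panel the 3 NC libraries lie above all PEG libraries, with Stat4 at 5658 to 7903 in PEG and 33238 to 49689 in NC.

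The row with the widest gap carries the name Stat4 (ENSRNOG00000014079), the STAT of the IL-12 receptor. Reads from a gene that lies beside or overlaps another can be counted for either, and whether all reads of this row came from Stat4 was not tested. Its normalized counts were 7766, 7903 and 5658 in PEG 1 to PEG 3, 49689, 35997 and 33238 in NC 1 to NC 3, and 5484 and 5302 in Unop 1 and Unop 2. The 3 NC libraries stood clear of the other 5, while the PEG libraries lay only a little above the Unop nerves. The mean of the NC PNAs was 5.58 times that of the PEG PNAs, with a log2 difference of PEG minus NC of -2.47 ± 0.18 (SE, adjusted p = 0.000343). NC minus Unop was 2.86 ± 0.20 (SE, adjusted p = 6.92e-06), and PEG minus Unop was 0.38 ± 0.20 (SE, adjusted p = 0.137), which did not pass.

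Like the 7 T cell and the 4 NK cell markers, the Stat4 row was called lower in PEG than in NC PNAs and higher in NC PNAs than in Unop nerves. The sizes of these changes differed, as did the order of Stat4 and of the T cell markers among libraries of a group. In Unop nerves, where Cd3e (a chain of the T cell receptor complex) was at 39.7 and 15.0, Stat4 was still at 5484 and 5302. From Unop to NC, the mean of Cd3e rose 203-fold and that of the NK cell gene Nkg7 108.7-fold, against 7.35-fold for Stat4. The folds of both markers rest on few reads in Unop 1 and Unop 2, 37 and 12 for Cd3e and 30 and 18 for Nkg7. Among the NC PNAs, Stat4 was highest in NC 1, as were all 15 measured genes of the interferon-stimulated list, whereas all 7 T cell markers were highest in NC 2. Among the PEG PNAs, Stat4 was lowest in PEG 3, as were 15 of 15 interferon-stimulated genes, while T cell markers were lowest in PEG 2. Which cells these reads came from was not tested.

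Stat2 (ENSRNOG00000031081), the STAT that binds IRF9, had the next widest gap. Its normalized counts were 3443, 4658 and 2978 in PEG 1 to PEG 3, 11889, 8505 and 7881 in NC 1 to NC 3, and 2159 and 2373 in Unop 1 and Unop 2. The 3 groups did not overlap, and their order was Unop, PEG, NC. PEG minus NC was -1.35 ± 0.20 (SE, adjusted p = 0.00222) on the log2 scale, and the NC mean was 2.55 times the PEG mean. PEG PNAs were above Unop nerves by 0.68 ± 0.22 (SE, adjusted p = 0.0266). That call rested on single libraries, since the difference was 0.50 without PEG 2 (adjusted p = 0.0682), 0.61 without Unop 1 (adjusted p = 0.132) and 0.75 without Unop 2 (adjusted p = 0.0764). NC PNAs were above Unop nerves by 2.03 ± 0.22 (SE, adjusted p = 7.03e-05).

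Within each operated group, Stat2 was highest in the library in which interferon-stimulated genes were highest, PEG 2 and NC 1. The summed level of those 15 genes was 48103 in PEG 2 against 21005 and 11823 in PEG 1 and PEG 3, and 101044 in NC 1 against 38127 and 32752 in NC 2 and NC 3. With PEG 2 and NC 1 both left out, an alternative chosen after the data were seen, 5 of 6 STAT genes were again called lower in PEG than in NC PNAs. Without NC 1 and NC 3, the NC libraries with most muscle RNA, the count was again 5 of 6.

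**Figure D2:**
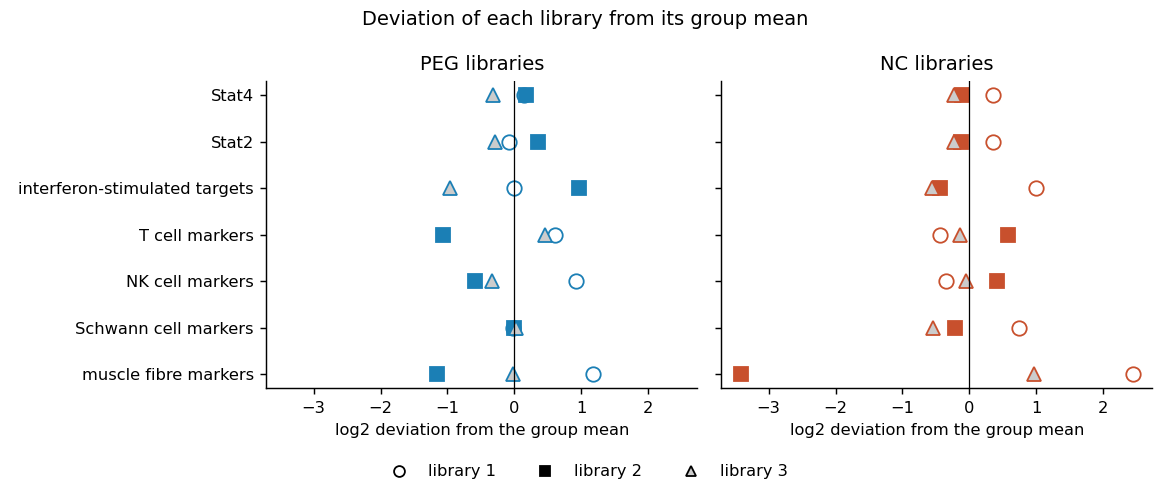
Deviation of each library from the mean of its group on the log2 scale, for Stat4, Stat2 and the average of each gene list, in PEG (left) and NC libraries (right). Symbols mark the library number. Stat4 and Stat2 share the highest NC library with the interferon-stimulated targets, at 0.35 and 0.36 above the group mean, where T cell markers were 0.44 below it.

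Stat3 (ENSRNOG00000019742), the STAT of the IL-6 group, moved less, with the smallest SE of the 6 genes. Its normalized counts were 5201, 4806 and 5302 in PEG 1 to PEG 3, 8141, 8277 and 8158 in NC 1 to NC 3, and 3815 and 3453 in Unop 1 and Unop 2. The NC libraries lay close together, at 8192 ± 74.2 (mean ± SD, n = 3), and no group overlapped another. PEG PNAs stood between Unop nerves and NC PNAs, with PEG minus NC at -0.68 ± 0.08 (SE, adjusted p = 0.000968) and PEG minus Unop at 0.49 ± 0.09 (SE, adjusted p = 0.00145). NC minus Unop was 1.17 ± 0.09 (SE, adjusted p = 8.54e-06).

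Stat5a and Stat5b, which pass on the IL-2 group, growth hormone and prolactin signals, were the least abundant rows of the family by count. Stat5a (ENSRNOG00000019496) had normalized counts of 786, 772 and 872 in PEG 1 to PEG 3, 1298, 2004 and 1524 in NC 1 to NC 3, and 892 and 874 in Unop 1 and Unop 2. Its PEG libraries were all below the Unop nerves and the NC libraries all above them. PEG minus NC was -0.97 ± 0.15 (SE, adjusted p = 0.00293), NC minus Unop 0.84 ± 0.17 (SE, adjusted p = 0.00244), and PEG minus Unop -0.13 ± 0.17 (SE, adjusted p = 0.547), a difference that did not pass.

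Stat5b (ENSRNOG00000019075) had normalized counts of 888, 709.6 and 983 in PEG 1 to PEG 3, 1276, 1415 and 1496 in NC 1 to NC 3, and 719 and 812 in Unop 1 and Unop 2. The PEG and Unop libraries overlapped and the NC libraries lay above both. PEG minus NC was -0.71 ± 0.13 (SE, adjusted p = 0.00651), NC minus Unop 0.87 ± 0.15 (SE, adjusted p = 0.0011), and PEG minus Unop 0.16 ± 0.15 (SE, adjusted p = 0.394). The ratio of Stat5a to Stat5b counts was 0.885, 1.09 and 0.887 in PEG, 1.02, 1.42 and 1.02 in NC and 1.24 and 1.08 in Unop libraries, and these ranges overlapped. In RefSeq, Stat5b, Stat5a and Stat3 are consecutive genes on chromosome 10, and reads of the near-identical Stat5a and Stat5b could be split between them.

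Stat6 (ENSRNOG00000025023), the STAT of IL-4 and IL-13, showed the smallest differences between PEG and NC PNAs. Its normalized counts were 2113, 2195 and 2178 in PEG 1 to PEG 3, 2351, 2834 and 2752 in NC 1 to NC 3, and 1742 and 2090.0 in Unop 1 and Unop 2. Every PEG library was below every NC library, but PEG minus NC was -0.29 ± 0.10 (SE, adjusted p = 0.0677) and was not called. The difference was -0.37 without NC 1 and then passed (adjusted p = 0.03). It was also called without Unop 1 (adjusted p = 0.0484) or Unop 2 (adjusted p = 0.0488), which changed the estimate of the spread and left the difference at -0.29. NC minus Unop was 0.47 ± 0.11 (SE, adjusted p = 0.00683), and 0.34 without Unop 1, where the adjusted p was 0.0537. PEG minus Unop was 0.18 ± 0.11 (SE, adjusted p = 0.208).

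**Figure D3:**
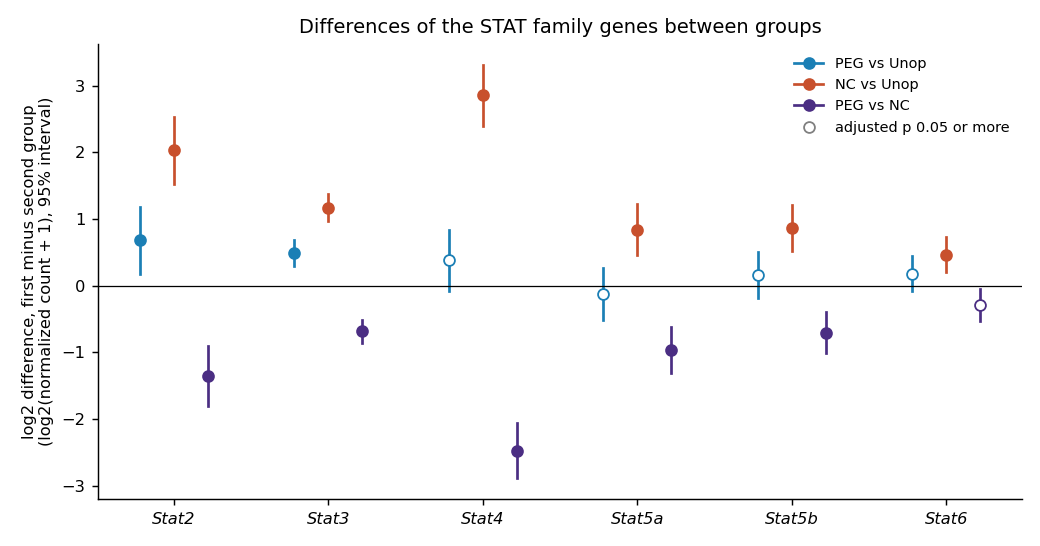
Log2 differences of the 6 STAT genes for PEG against Unop, NC against Unop and PEG against NC, as points with 95% intervals. Filled points passed an adjusted p of 0.05. All 6 NC minus Unop differences are above 0, from 0.47 for Stat6 to 2.86 for Stat4, and all 6 PEG minus NC differences are below 0.

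The genes whose levels ran most like those of a member were found by Pearson's r of log2(normalized count + 1) over the 8 libraries, which fall into 3 groups, so that any gene with the same order of groups scores high. Nearest to Stat4 were Trim21 (r = 0.994), an intracellular antibody receptor, and the guanylate-binding proteins Gbp5 (r = 0.994) and Gbp7 (r = 0.993), all known to be induced by interferon. Gbp5 stood at 1493 to 2172 in PEG, 10936 to 18232 in NC and 1004 to 1088 in Unop libraries, with NC 1 highest as for Stat4. Nearest to Stat2 were Rnf114 (r = 0.997), a ubiquitin ligase, Daxx (r = 0.994), a histone chaperone, and Samhd1 (r = 0.993), a nucleotide hydrolase that restricts viruses. Nearest to Stat3 were Rhoh (r = 0.996), a small GTPase of blood cells, Rab43 (r = 0.996) and Dram1 (r = 0.995). Stat5a was most alike to Heca (r = 0.994), Sdr39u1 (r = 0.990) and Rad51d (r = 0.989). Stat5b was most alike to Taok3 (r = 0.983) and to AABR07017825.5 (r = 0.987) and AABR07017693.3 (r = 0.982), whose counts did not exceed 2.81 in any PEG or Unop library. Stat6 was most alike to Ranbp10 (r = 0.995), Sbno1 (r = 0.994) and Kdm3a (r = 0.994). Among the members themselves r was between 0.764 for Stat2 with Stat5a and 0.968 for Stat2 with Stat4.

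A STAT pair binds the palindrome TTCNNNGAA, and the complex of STAT2 with IRF9 binds the interferon-stimulated response element (ISRE), searched here as GAAA and GAAA with any 2 bases between them. Promoter windows of 300 bases, from 250 bases before to 50 after the transcription start (RefSeq, GRCr8), were searched on both strands for these letters, and all 6 members had a window. TTCNNNGAA was in 8.87% of 33469 rat windows and the ISRE letters in 3.92%, and neither was in the window of any of the 6 STAT genes. This says only that these letters are not in these windows. CCAAT was in 37.5% of windows, among them those of Stat2 and Stat3, and GGGCGG in 33.1%, among them those of Stat2, Stat5a and Stat5b. The windows of Stat2, Stat3 and Stat4, the members that were DEGs between NC PNAs and Unop nerves, are shown with CCAAT or its complement and, for Stat2, GGGCGG or its complement in capitals. They lie at chr7:1286840-1287139 on the forward strand, chr10:86363310-86363609 on the reverse strand and chr9:57080474-57080773 on the reverse strand, and the window of Stat4 held neither motif.
Stat2: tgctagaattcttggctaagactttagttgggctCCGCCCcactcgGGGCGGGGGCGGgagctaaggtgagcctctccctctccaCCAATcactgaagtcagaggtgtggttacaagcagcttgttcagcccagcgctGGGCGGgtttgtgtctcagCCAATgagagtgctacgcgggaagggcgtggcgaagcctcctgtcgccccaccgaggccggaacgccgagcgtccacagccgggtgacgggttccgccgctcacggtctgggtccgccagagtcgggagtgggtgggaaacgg
Stat3: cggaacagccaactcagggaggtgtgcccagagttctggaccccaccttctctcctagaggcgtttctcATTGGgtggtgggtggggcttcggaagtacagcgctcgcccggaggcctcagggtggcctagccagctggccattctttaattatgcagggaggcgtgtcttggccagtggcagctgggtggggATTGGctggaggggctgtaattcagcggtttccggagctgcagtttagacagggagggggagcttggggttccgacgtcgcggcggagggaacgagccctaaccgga
Stat4: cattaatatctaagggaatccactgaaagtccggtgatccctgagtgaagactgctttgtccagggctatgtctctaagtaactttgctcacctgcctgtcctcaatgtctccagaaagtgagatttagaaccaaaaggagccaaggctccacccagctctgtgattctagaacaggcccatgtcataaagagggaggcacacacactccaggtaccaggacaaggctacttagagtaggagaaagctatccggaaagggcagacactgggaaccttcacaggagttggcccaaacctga

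Windows of 3 genes from the lists of inhibitors and targets are shown beside them because they hold the letters that STAT proteins bind. They were picked for these matches from 104 listed genes with 1 window each, the STAT genes included. Among the others, Irf9 held TTCNNNGAA 1 time, while Socs3, Pim1, Sbno2 and Igf1 held neither TTCNNNGAA nor the ISRE letters. Socs1 and Cish encode inhibitors of the pathway, and Bst2 encodes tetherin, a membrane protein that holds back virus particles. Capitals mark TTCNNNGAA and the ISRE letters. The window of Cish held TTCNNNGAA 4 times, at 241, 230, 136 and 119 bases before the start by its first base. Those of Socs1 and Bst2 held 1 match of TTCNNNGAA and 2 overlapping matches of the ISRE letters. In Bst2 the first of these also overlaps the end of the palindrome. A match of letters is a description and does not show that a STAT was bound in these nerves. The windows lie at chr10:5389324-5389623 on the forward strand, chr8:116850719-116851018 on the forward strand and chr16:18254918-18255217 on the reverse strand.
Socs1: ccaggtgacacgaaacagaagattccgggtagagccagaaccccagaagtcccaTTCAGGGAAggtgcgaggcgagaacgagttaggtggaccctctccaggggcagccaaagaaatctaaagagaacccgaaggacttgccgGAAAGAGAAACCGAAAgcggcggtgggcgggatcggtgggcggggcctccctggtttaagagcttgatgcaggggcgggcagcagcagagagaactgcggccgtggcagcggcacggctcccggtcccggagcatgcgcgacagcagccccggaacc
Cish: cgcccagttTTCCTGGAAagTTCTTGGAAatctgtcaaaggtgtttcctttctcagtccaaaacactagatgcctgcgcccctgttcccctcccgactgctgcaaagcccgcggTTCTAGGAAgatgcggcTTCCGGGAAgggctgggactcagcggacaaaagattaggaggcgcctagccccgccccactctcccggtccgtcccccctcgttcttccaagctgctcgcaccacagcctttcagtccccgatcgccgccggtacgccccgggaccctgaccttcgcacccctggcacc
Bst2: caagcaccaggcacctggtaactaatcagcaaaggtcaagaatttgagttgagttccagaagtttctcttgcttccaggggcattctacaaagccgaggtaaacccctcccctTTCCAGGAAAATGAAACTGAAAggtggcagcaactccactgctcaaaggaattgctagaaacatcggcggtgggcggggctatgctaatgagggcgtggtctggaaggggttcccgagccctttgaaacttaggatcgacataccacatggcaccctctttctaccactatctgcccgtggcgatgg

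The other genes of the pathway were taken in 14 lists with 148 genes, of which 132 were tested. In PEG against NC PNAs 69 of the 132 were called lower, where 13.9% of all tested genes were, and 8 higher, where 15.0% were. The median log2 difference of the 132 genes was -0.76. Some genes stand in several lists, and they were counted once here.

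**Figure D4:**
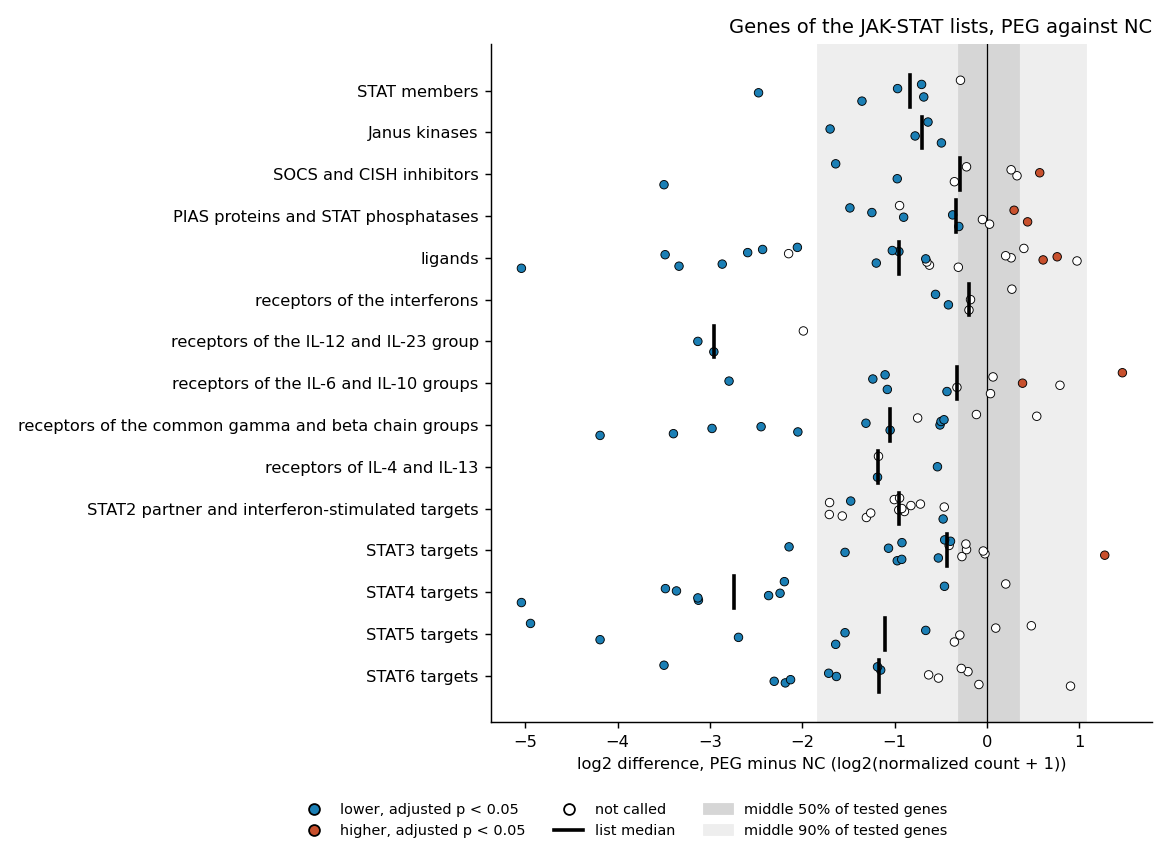
Log2 difference of PEG minus NC for each tested gene of the STAT family and of the 14 pathway and target lists, with one point per gene and a bar at the list median. Grey bands hold the middle 50% and 90% of all tested genes, from -0.31 to 0.35 and from -1.83 to 1.07. All 4 Janus kinases lie left of the inner band, while the inhibitors spread to both sides of 0.

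The Janus kinases phosphorylate the STAT proteins, and all 4 were called lower in PEG than in NC PNAs, where 13.9% of tested genes were. Jak3, which works with the common gamma chain in lymphocytes, had normalized counts of 1239, 696 and 1152 in PEG 1 to PEG 3, 2412, 4606 and 3059.9 in NC 1 to NC 3, and 197 and 145 in Unop 1 and Unop 2. PEG minus NC was -1.70 ± 0.29 (SE, adjusted p = 0.0041), and PEG minus Unop was 2.55 ± 0.32 (SE, adjusted p = 0.000232). Jak2, the kinase of the IL-12, growth hormone and IL-3 group receptors, was at 3993, 3919 and 3518 in PEG, 6087, 7285 and 6253 in NC and 3080.1 and 3061 in Unop libraries, with PEG minus NC at -0.78 ± 0.09 (SE, adjusted p = 0.00121). Tyk2 and Jak1, which serve the interferon receptors, showed smaller differences of -0.64 ± 0.14 (SE, adjusted p = 0.0107) and -0.49 ± 0.11 (SE, adjusted p = 0.0115). All 4 kinases were called higher in NC PNAs than in Unop nerves, where 32.2% of all tested genes were, and 3 of 4, all but Jak1, in PEG PNAs, where 29.1% were. The Jak2 call in PEG PNAs (0.31) was lost without PEG 1, PEG 2, Unop 1 or Unop 2 (adjusted p = 0.0863 to 0.101).

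Of the 8 SOCS and CISH inhibitors, 3 were called lower in PEG than in NC PNAs, 1 higher and 4 neither. Over all tested genes 13.9% were called lower and 15.0% higher. Socs1, which blocks Janus kinases after interferon gamma, showed the widest gap, with normalized counts of 159, 90.7 and 84.4 in PEG 1 to PEG 3, 1560.3, 1025 and 1127 in NC 1 to NC 3, and 38.6 and 33.8 in Unop 1 and Unop 2. The PEG and NC libraries lay far apart, with NC 11.1 times PEG by the means and PEG minus NC at -3.50 ± 0.27 (SE, adjusted p = 0.000387). Cish, an inhibitor that answers to STAT5, was at 161, 132 and 196 in PEG, 517, 481 and 511 in NC and 249 and 221 in Unop libraries. It was lower in PEG PNAs than in NC PNAs, by -1.64 ± 0.16 (SE, adjusted p = 0.000631), and lower than in Unop nerves, by -0.54 ± 0.18 (SE, adjusted p = 0.0317). The call of Cish against Unop was lost without PEG 1, PEG 2, Unop 1 or Unop 2 (-0.63 to -0.40, adjusted p = 0.0596 to 0.144), without NC 1 and NC 3 (adjusted p = 0.062) and without PEG 2 and NC 1 (adjusted p = 0.107).

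Socs3, which closes the receptors of the IL-6 group, was at 580.2, 468 and 620.1 in PEG, 876, 1326 and 1096 in NC and 153 and 116 in Unop libraries. PEG minus NC was -0.97 ± 0.19 (SE, adjusted p = 0.00725) and PEG minus Unop 2.04 ± 0.21 (SE, adjusted p = 7.97e-05), so that PEG PNAs lay between the other groups. Socs5 went the other way. It was at 3666, 4167 and 3544 in PEG, 2524, 2637 and 2477 in NC and 2641 and 2339 in Unop libraries, higher in PEG than in NC PNAs by 0.57 ± 0.09 (SE, adjusted p = 0.003) and than in Unop nerves by 0.61 ± 0.10 (SE, adjusted p = 0.00106). The differences that did not pass in PEG against NC were -0.35 for Socs2 (adjusted p = 0.211), 0.33 for Socs4 (adjusted p = 0.0852), 0.26 for Socs6 (adjusted p = 0.142) and -0.22 for Socs7 (adjusted p = 0.407).

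A list of 10 genes held PIAS proteins, phosphatases that act on STAT proteins and Usp18, which also stands in the interferon-stimulated list. Of these 10, 5 were called lower and 2 higher in PEG than in NC PNAs, against 13.9% and 15.0% of all tested genes. The 5 became 3 without PEG 3 or NC 2. Ptpn6 (SHP-1) and Ptprc (CD45), phosphatases of blood cells, differed by -1.25 ± 0.12 (SE, adjusted p = 0.000623) and -1.48 ± 0.18 (SE, adjusted p = 0.00114), and Ptpn1 (PTP1B) by -0.90 ± 0.16 (SE, adjusted p = 0.00457). The 2 higher genes, named after their values were seen, were Pias3, an inhibitor of STAT3, with 0.44 ± 0.12 (SE, adjusted p = 0.0255), and Ptpn11 (SHP-2) with 0.29 ± 0.07 (SE, adjusted p = 0.0186). Neither call held without NC 1 and NC 3 (adjusted p = 0.156 for Pias3 and 0.0937 for Ptpn11) or without PEG 2 and NC 1 (0.164 and 0.100). Single libraries decided them too, since Pias3 was not called without PEG 1, PEG 2, PEG 3 or NC 1 (0.34 to 0.48, adjusted p = 0.0548 to 0.0936) and Ptpn11 not without PEG 2, PEG 3 or NC 2 (0.28, adjusted p = 0.0538 to 0.0749).

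Of 31 ligands that act through these STAT proteins, 21 were tested, and 11 were called lower and 2 higher in PEG than in NC PNAs, against 13.9% and 15.0% of all tested genes. The counts were 7 and 0 without PEG 2, 6 and 0 without NC 1 and NC 3, and 7 and 0 without PEG 2 and NC 1. The other 10, Il4 and Il13 of the STAT6 arm and Ifnb1 of the STAT2 arm among them, did not reach 10 normalized counts in 2 libraries. Ifng encodes interferon gamma, a product of T and NK cells that is made under STAT4. Its normalized counts were 12.05, 1.87 and 3.75 in PEG 1 to PEG 3, 135, 192.6 and 240.2 in NC 1 to NC 3, and 1.07 and 0 in Unop 1 and Unop 2. In Unop nerves that was at most 1 read, and PEG minus NC was -5.04 ± 0.59 (SE, adjusted p = 0.00107). Il10, a STAT3 ligand that restrains macrophages, was at 9.27, 5.61 and 9.38 in PEG and 62.6, 136 and 113 in NC libraries, a difference of -3.48 ± 0.42 (SE, adjusted p = 0.00121). Il27, a ligand of the IL-12 family, was at 10.2, 12.2 and 4.69 in PEG and 65.2, 58.1 and 82.0 in NC libraries, a difference of -2.87 ± 0.45 (SE, adjusted p = 0.00293).

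The IL-6 group, chosen for this account after its values were seen, moved in several directions. Cntf was at 297, 294 and 267 in PEG, 273, 262 and 188 in NC and 43505 and 41465 in Unop libraries. Both kinds of PNA thus held a small part of the Unop level, and PEG minus Unop was -7.21 ± 0.16 (SE, adjusted p = 3.64e-07), while PEG minus NC did not pass (0.26, adjusted p = 0.203). Lif and Clcf1, the 2 ligands called higher in PEG than in NC PNAs, differed by 0.61 ± 0.17 (SE, adjusted p = 0.0294) and 0.76 ± 0.18 (SE, adjusted p = 0.0161). Neither call held without NC 1 and NC 3 (adjusted p = 0.0715 for Lif and 0.182 for Clcf1) or without PEG 2 and NC 1 (0.207 and 0.123). Lif was not called either without PEG 1, PEG 2, NC 1 or NC 2 (0.50 to 0.63, adjusted p = 0.0712 to 0.114), nor Clcf1 without PEG 1 or PEG 2 (0.72 and 0.63, adjusted p = 0.0557 and 0.0642). Osm, made by blood cells, was lower in PEG PNAs by -0.66 ± 0.16 (SE, adjusted p = 0.018), a call lost without PEG 2, PEG 3 or NC 2 (adjusted p = 0.0576 to 0.0741) and under both of these exclusions of 2 libraries (adjusted p = 0.0696 and 0.0984).

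Among the receptors of this group, the shared chain Il6st (gp130) was at 6819, 5819 and 7129 in PEG, 6707, 5304 and 7339 in NC and 7245 and 8221 in Unop libraries, and none of its differences passed. Lifr, the second chain for LIF and CNTF, was at 246, 202 and 279 in PEG, 577, 424 and 535 in NC and 1674 and 2316 in Unop libraries. PEG minus NC was -1.08 ± 0.18 (SE, adjusted p = 0.00424) and PEG minus Unop -3.03 ± 0.21 (SE, adjusted p = 8.67e-06), and the call against NC was lost without NC 1 and NC 3 (-0.82, adjusted p = 0.0651). Osmr, the chain for oncostatin M, was higher than in Unop nerves in both kinds of PNA, by 1.74 in PEG (adjusted p = 1.1e-05) and 2.06 in NC (adjusted p = 3.13e-06). The summed Schwann cell markers given for these libraries moved with Cntf and Lifr between operated and Unop nerves, and their part was not tested.

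**Figure D5:**
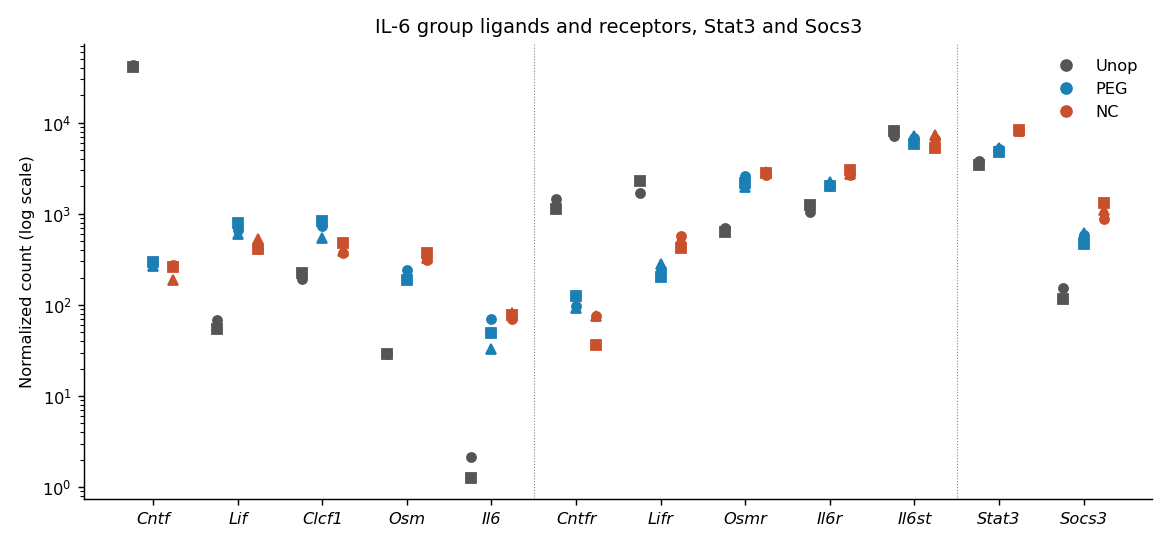
Normalized counts on a log axis of ligands (left), receptors (middle) and Stat3 and Socs3 (right) of the IL-6 group, with one symbol per library and colours for the Unop, PEG and NC groups. Cntf falls from 41465 to 43505 in Unop nerves to between 188 and 297 in the PNAs, while Stat3 and Socs3 rise from Unop to PEG to NC.

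Of the receptors, those of lymphocytes showed the widest differences between PEG and NC PNAs. Both IL-12 receptor chains, through which STAT4 is recruited, were lower in PEG PNAs, Il12rb2 by -3.13 ± 0.33 (SE, adjusted p = 0.000787) and Il12rb1 by -2.96 ± 0.46 (SE, adjusted p = 0.00303). Il12rb2 was at 76.0, 42.1 and 46.9 in PEG, 329.7, 647 and 497 in NC and 37.6 and 58.8 in Unop libraries, so that PEG and Unop overlapped. For Il23r the difference was -1.99 ± 0.86 (SE, adjusted p = 0.118), and it was called without NC 1 (-2.73, adjusted p = 0.0434). Of 13 tested receptors of the common gamma and beta chain groups, which signal through STAT5, 10 were called lower and none higher. Over all tested genes the shares were 13.9% and 15.0%. The 10 became 6 without PEG 1, PEG 2 or NC 2. Il2ra, the high-affinity IL-2 chain and itself a STAT5 target, was at 175, 72.0 and 100.4 in PEG, 2079, 2021 and 1879 in NC and 56.9 and 60.0 in Unop libraries. Its mean in NC PNAs was 17.2 times that in PEG PNAs, with PEG minus NC at -4.19 ± 0.28 (SE, adjusted p = 0.000343). Il15ra differed by -2.98 ± 0.23 (SE, adjusted p = 0.00038) and the common gamma chain Il2rg by -2.05 ± 0.17 (SE, adjusted p = 0.000439). The summed T and NK cell markers given for these libraries moved with these receptors, and their part was not tested.

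Of 5 interferon receptor chains, 2 were called lower and none higher in PEG than in NC PNAs, against 13.9% and 15.0% of tested genes. Those 2 were Ifngr2, by -0.56 ± 0.11 (SE, adjusted p = 0.00808), and Ifnar2, by -0.42 ± 0.12 (SE, adjusted p = 0.0312). The count was 4 of 5 without NC 1 or without NC 1 and NC 3, and 1 of 5 without PEG 2 and NC 1. The Ifnar2 call was lost when any one of PEG 1, PEG 2, PEG 3, NC 2 or NC 3 was left out (adjusted p = 0.0569 to 0.0979, difference -0.46 to -0.32). Ifngr1 and Ifnlr1 did not pass, at -0.18 (adjusted p = 0.508) and 0.27 (adjusted p = 0.0995). Without NC 1 Ifngr1 was called lower (-0.41, adjusted p = 0.0305). All 5 chains were called higher than in Unop nerves in both kinds of PNA, where 29.1% of all tested genes were in PEG and 32.2% in NC PNAs. Of the 11 receptors of the IL-6 and IL-10 groups 5 were called lower and 2 higher, against 13.9% and 15.0% of all tested genes. Il10ra differed by -1.24 ± 0.11 (SE, adjusted p = 0.000537) and Il27ra by -2.79 ± 0.42 (SE, adjusted p = 0.00247). The 2 became 1 without PEG 1, PEG 3 or NC 2, and the 5 became 3 without NC 1 and NC 3 or without PEG 2 and NC 1.

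The IL-4 and IL-13 receptors recruit STAT6, and 2 of 3 were called lower in PEG than in NC PNAs. The share of all tested genes was 13.9%. Il4r was at 3547, 2940.2 and 3501 in PEG, 6908, 8183 and 7589 in NC and 1784 and 1207 in Unop libraries, with PEG minus NC at -1.18 ± 0.15 (SE, adjusted p = 0.00145), while Stat6 itself was not called. Il13ra1 differed by -0.54 ± 0.11 (SE, adjusted p = 0.00992), a call that was lost without NC 1 and NC 3 (-0.41, adjusted p = 0.131) and without PEG 2 and NC 1 (-0.46, adjusted p = 0.0814). For the decoy receptor Il13ra2 the difference was -1.17 ± 0.46 (SE, adjusted p = 0.0898). It was called lower without PEG 1 (-1.63, adjusted p = 0.0283) or without NC 1 (-1.55, adjusted p = 0.0378).

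The target lists hold genes known to be turned on by each STAT, although most answer to other factors too. Of 15 interferon-stimulated targets of STAT2 with IRF9, 2 were called lower in PEG than in NC PNAs, a share near the 13.9% of all tested genes, and none higher, with a list median of -0.95. Bst2 was at 2891, 2429 and 1901 in PEG, 9818, 5596 and 5223 in NC and 1998 and 1449.6 in Unop libraries, a PEG minus NC difference of -1.47 ± 0.26 (SE, adjusted p = 0.00493). Irf9, the partner of STAT2, differed by -0.47 ± 0.15 (SE, adjusted p = 0.0461), and that call was lost when any library other than PEG 2 was left out (adjusted p = 0.0659 to 0.135) and with edgeR (-0.44, adjusted p = 0.0604). Mx1, an antiviral GTPase, spread widely within groups, at 2404, 6731 and 952 in PEG 1 to PEG 3, 24278, 4953 and 4462 in NC 1 to NC 3, and 627 and 452 in Unop 1 and Unop 2. PEG 2 exceeded NC 2 and NC 3, and the difference of -1.71 ± 0.80 (SE, adjusted p = 0.144) did not pass. For Ifi44 the difference was -1.003 ± 0.37 (SE, adjusted p = 0.0776), and without PEG 2 it was called (-1.32, adjusted p = 0.0485). The count lower in PEG PNAs was 7 of 15 without PEG 2, 1 of 15 without any one other library, 1 of 15 without NC 1 and NC 3, and 9 of 15 without PEG 2 and NC 1. The last is a description, since those libraries were left out for the level of these same genes. In NC PNAs 13 of 15 were called higher than in Unop nerves, which became 7 without Unop 2, 8 without NC 1 and NC 3, and 15 without PEG 2 and NC 1. In PEG PNAs 3 of 15 were, which became 1 without either Unop library, 7 without NC 1, 9 without PEG 3, and 6 under both exclusions of 2 libraries.

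Of 10 STAT4 targets, genes of type 1 T cells and NK cells, 9 were called lower in PEG than in NC PNAs and none higher. Over all tested genes the shares were 13.9% and 15.0%, and the list median was -2.74. Ifng and Il12rb2, described with the ligands and receptors, are among them. Against Unop nerves, 9 of 10 of these targets were called higher in PEG PNAs and 10 of 10 in NC PNAs. Over all tested genes the shares called higher were 29.1% and 32.2%. The 9 became as few as 6 with a library left out. Il12rb2, whose PEG and Unop libraries overlapped, was the target not called in PEG PNAs (0.17, adjusted p = 0.706).

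Of 16 STAT3 targets tested, 9 were called lower and 1 higher in PEG than in NC PNAs, against 13.9% and 15.0% of tested genes. The 9 became 4 without PEG 2, 5 without NC 3 and 6 without PEG 2 and NC 1. Pim1, a kinase that promotes survival, was at 528, 486 and 464 in PEG, 1256, 1589 and 1464 in NC and 104 and 96.3 in Unop libraries, a difference of -1.54 ± 0.12 (SE, adjusted p = 0.00039). Sbno2, a co-regulator in the IL-10 response, differed by -0.92 ± 0.15 (SE, adjusted p = 0.00362). The exception was Ccnd1, which encodes the cell cycle regulator cyclin D1. It was at 16778, 17065 and 18480.1 in PEG, 8689, 6630.0 and 6469.9 in NC and 5998 and 5192 in Unop libraries, higher in PEG than in NC PNAs by 1.28 ± 0.13 (SE, adjusted p = 0.000644). Timp1, an inhibitor of metalloproteinases, ranged from 9923 to 14278 in PEG and from 9268 to 16567 in NC libraries, with a difference of -0.04 ± 0.22 (SE, adjusted p = 0.915). Against Unop nerves, 13 of 16 of these targets were called higher in PEG PNAs and 12 of 16 in NC PNAs. The shares over all tested genes were 29.1% and 32.2%.

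Of 10 STAT5 targets 6 were called lower in PEG than in NC PNAs and none higher, Cish, Il2ra and Pim1 among them. The shares over all tested genes were 13.9% and 15.0%, and the list median was -1.10. Igf1, the growth factor made under growth hormone, was at 5629, 4319 and 5784 in PEG, 3762, 2907 and 4729.7 in NC and 3208 and 1919.9 in Unop libraries, and its difference of 0.48 ± 0.23 (SE, adjusted p = 0.158) did not pass. Of 14 tested STAT6 targets, 8 were called lower and none higher, against the same 13.9% and 15.0%, with a median of -1.17. Clec10a, a lectin of macrophages and dendritic cells, was at 5169, 2613 and 3794 in PEG, 13293, 11576 and 11754 in NC and 2655 and 1727 in Unop libraries, a difference of -1.71 ± 0.25 (SE, adjusted p = 0.00219). Tgm2, a transglutaminase, differed by -1.15 ± 0.17 (SE, adjusted p = 0.00232). The list also holds Arg1 and Mrc1, often used as markers of STAT6-driven macrophages, and their differences of 0.91 (adjusted p = 0.142) and -0.09 (adjusted p = 0.766) did not pass.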

How the data were processed

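RNA-seq libraries of sciatic nerve (PEG, n = 3, NC, n = 3, and Unop, n = 2) were prepared with a stranded mRNA kit. The authors aligned the paired-end reads to the rat genome (Rnor_6.0) by TopHat2, assigned them to Ensembl genes with HTSeq and divided the counts by DESeq2 size factors, and these normalized counts are the signal values that were deposited. Whether the counting used the strand is not given in the sources used here. Tables of log2 fold changes and p-values of the authors' own comparisons were not used.

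Divided by what 1 read was worth in its library, 100% of values came out whole to 0.001, which gave size factors of 0.800 to 1.12 and the reads of each gene. A gene entered the test if 2 or more libraries reached 10 normalized counts (16478 of 32545 genes). The test was limma 3.58.1 (trend, group means of all 8 libraries) on log2(normalized count + 1), which understates changes of low counts. P-values were adjusted by the Benjamini-Hochberg method over all tested genes. The limma code was tested on simulated counts. Per the study's methods, the libraries came from 3, 3 and 2 animals. Alternatives were edgeR 4.0.16 and DESeq2 1.42.0 on the recovered reads, rescaling by TMM factors, a pseudocount of 8, a replicate block, a filter of 50 counts and none at all, a robust fit, a fit to just the groups compared, and each library left out. R 4.3.3 and Python 3.11.15 were used.

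Members, lists and tests were chosen with earlier results of these data known. Named are the 6 members, all Janus kinases and SOCS and CISH genes, of every other pathway or target list the 3 genes of smallest adjusted p in PEG against NC and the most abundant gene, and the 3 genes most alike to each member. Genes named outside this rule are illustrations chosen after their values were seen, and no list was tested as a set. A few listed genes were not found by symbol and were left out, and some genes that the rule names are not reported here. Promoter windows are from RefSeq (GRCr8), a later build than that of the counts.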

Additional observations from a re-analysis of the deposited data

How the results depend on the processing

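Over 19 alternatives for each of 6 members and 3 comparisons, 333 of 342 values kept their direction and their side of the threshold, 4 lost a call, 5 gained one and none reversed. The 5 STAT genes called lower in PEG than in NC PNAs passed in all 19, and the count was 5 to 6. In NC against Unop it was 5 to 6 of 6 genes. In PEG against Unop, 2 genes were called higher, and 1 to 2 with a library left out, the lower count without PEG 2, Unop 1 or Unop 2. Of the pathway and target genes, 69 were called lower and 8 higher in PEG than in NC PNAs, with 53 to 70 lower and 4 to 8 higher when a library was left out. The 8 became 4 without PEG 1 or PEG 2 and 5 without PEG 3. They were also 4 without PEG 2 and NC 1, where Lif, Clcf1, Pias3 and Ptpn11 were the genes lost. The exclusions of PEG 2 with NC 1 and of NC 1 with NC 3 were both chosen after the data were seen. Where a group kept a lone library, as NC did without NC 1 and NC 3, that library was assumed to vary like the other groups. The causes were not tested beyond the smaller number of libraries. Uncalled differences that changed sign were Il6st (0.04; -0.10 to 0.14 with a library left out, below 0 without PEG 3 or NC 2), Timp1 (-0.04; -0.24 to 0.18, above 0 without PEG 3 or NC 3, and 0.0062 without NC 1 and NC 3) and Socs7 (-0.22), at 0.10 without NC 1 and NC 3. Same-numbered libraries of PEG and NC deviated together with r = 0.108, 0.109 and -0.0502, so the numbers were not taken to pair the samples. With the replicate block, 5 STAT genes were again lower in PEG than in NC PNAs and 6 higher in NC than in Unop, and 3 were higher in PEG than in Unop, Stat4 (0.52, adjusted p = 0.0231) being the gene added, and Igf1 was called higher in PEG than in NC PNAs (0.48, adjusted p = 0.0279). No alternative was possible for the ratio of Stat5a to Stat5b. Comparisons with Unop rest on 2 nerves.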
